A study of Solanum lycopersicum with 6 samples.

Results

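The 5 pathogenesis-related genes of tomato fruit described here are GluB, PR1b1, NP24-I, CHI9 and CHI17. They were taken as every probe set whose platform gene symbol is exactly one of these names, which gave 6 probe sets for 5 of the 802 gene symbols and 10101 tested probe sets of the array. PR1b1 has 2 probe sets and each other gene 1. The genes were picked with their drought and control values on these arrays already known, so those values are given as a description and no test of them is reported.

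The fruits came from the dwarf tomato cultivar MicroTom, at the mature green stage, 30 to 40 days from flowering. Greenhouse temperatures were 25 °C in daytime and 20 °C in evenings. The control group of 3 arrays received liquid fertilizer diluted 500-fold. The drought group of 3 arrays received the same dilution once a week, so supply of water and of nutrients differed together. The labels do not say whether each sample was a separate plant, so p-values refer to the spread between samples alone, and that spread may be technical.

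Plants under attack accumulate pathogenesis-related proteins, which fall into families defined by sequence and activity. Beta-1,3-glucanases and chitinases cut the glucan and chitin of fungal cell walls, osmotin-like proteins are thaumatin relatives that can permeabilise fungal membranes, and PR-1 proteins form a family of small secreted or vacuolar antifungal proteins. Many of the basic, vacuolar forms respond to ethylene, the ripening hormone of tomato, and osmotin-like proteins are also known from salt-adapted cells.

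GluB, which encodes a basic beta-1,3-glucanase, stood at 6.35, 7.17 and 6.93 in control replicates 1 to 3 and at 6.16, 6.19 and 6.13 in drought replicates 1 to 3, on the log2 scale of the deposited values. All 3 drought arrays lay below all 3 controls, and control replicate 1 lay nearest to them, with a gap of 0.17 between the groups. The drought mean was lower by a log2 difference of -0.66 ± 0.23 (SE), from 6.82 ± 0.42 to 6.16 ± 0.030 (SD, n = 3 each). RNA came from whole tissue, where fewer cells of a type and less RNA per cell cannot be told apart.

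The osmotin-like gene NP24-I, whose protein was first described in salt-treated tomato, read 7.21, 7.33 and 7.14 in the control arrays. It read 6.85, 6.79 and 6.77 in the drought arrays. The groups did not overlap, and the gap between them, 0.29, exceeded the range within the controls (0.19) and within the drought arrays (0.077). The log2 difference was -0.42 ± 0.058 (SE), between means of 7.23 ± 0.097 and 6.80 ± 0.040 (SD, n = 3 each).

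CHI9, a basic chitinase gene, read 6.80, 6.95 and 6.86 in control replicates 1 to 3. Its drought values were 6.68, 6.66 and 6.68, all below the controls by at least 0.12. The log2 difference was -0.20 ± 0.043 (SE), between 6.87 ± 0.076 and 6.67 ± 0.012 (SD, n = 3 each).

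PR1b1, a basic member of the PR-1 family, was read by 2 probe sets that behaved differently. The first, whose name ends in S1_at, stood at 6.47, 7.31 and 6.40 in the control arrays and at 6.11, 6.11 and 6.59 in the drought arrays. The groups overlapped, since drought replicate 3 lay above control replicates 1 and 3, while the other 2 drought arrays lay below every control. Its log2 difference of -0.46 ± 0.32 (SE) rested largely on control replicate 2 and was -0.16 without it. The second probe set, ending in S2_at, was at 5.675 on all 6 arrays and ranged by only 3.7e-06 (difference -1.2e-06 ± 2.4e-06, SE). The 2 probe sets thus gave no common size of difference for this gene.

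CHI17 encodes an acidic, extracellular chitinase and was the only one of the 5 genes with a higher mean in drought on the values as deposited. It read 9.2543, 9.2546 and 9.2554 in the control arrays and 9.2575, 9.2570 and 9.2570 in the drought arrays. The groups did not overlap, but the whole range over the 6 arrays was 0.0032. The log2 difference of 0.0024 ± 0.00035 (SE) turned negative after quantile normalization (-0.0019) and after centring on array medians (-0.0031).

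**Figure D1:**
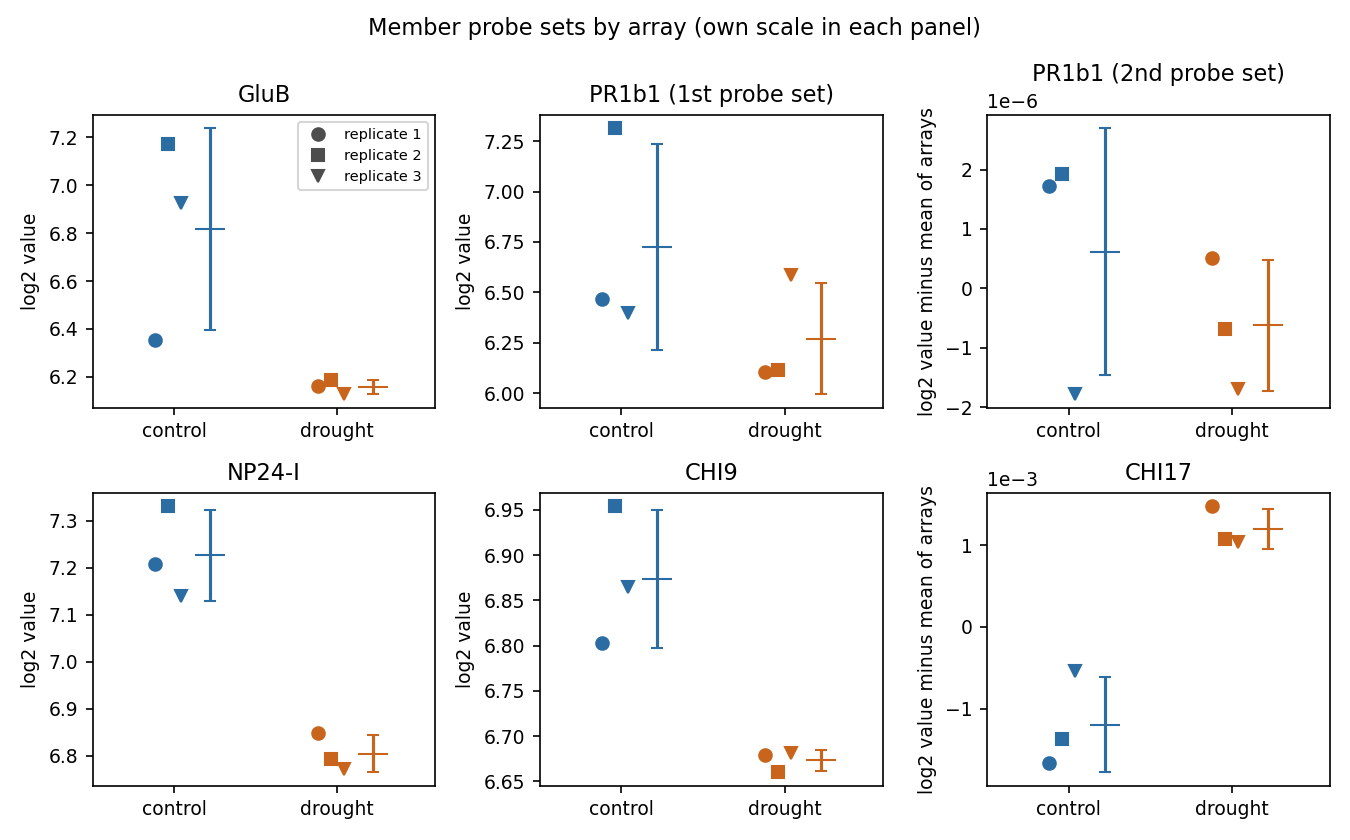
Log2 value of each of the 6 probe sets on each array (points, replicates 1 to 3 by shape), with the group mean and SD (bars, n = 3), each panel on its own scale and the second PR1b1 probe set and CHI17 given relative to their mean over the arrays. GluB, NP24-I and CHI9 have all drought arrays below all controls, PR1b1 overlaps, and CHI17 and the second PR1b1 probe set vary over 0.0032 and 3.7e-06 only.

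Over the whole array, control replicate 3 differed by over 0.1 from the drought arrays in 93 to 115 probe sets and from control replicates 1 and 2 in 164 and 149, whereas control replicates 1 and 2 differed from each other in 92 and the drought arrays among themselves in 47 to 69. In GluB and CHI9, by contrast, control replicate 1 lay nearest to the drought arrays. In NP24-I and the first PR1b1 probe set control replicate 3 was the lowest control, at 7.14 and 6.40.

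The drought values of the 3 separated genes GluB, NP24-I and CHI9 were close together, and the control values were not. The SD of GluB was 13.9 times as large in control as in drought, that of CHI9 6.58 times, that of NP24-I 2.44 times and that of the first PR1b1 probe set 1.85 times. All 6 probe sets had the larger SD in control, which was also so in 71.3% of all tested probe sets and in 89.9% of the 268 with a range over 0.1. Control replicate 2 was the highest array in each of the 4 probe sets that ranged over 0.1 (GluB, NP24-I, CHI9 and the first of PR1b1), against 26.1% of the 268. Control replicates 1 and 3 were highest in 58 and 26 of the 268, and drought replicates 1 to 3 in 15, 55 and 44. The genes were picked with these values known, so a control as highest array carries no weight of its own.

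Leaving out single arrays kept the drought mean lower in all 4 of these probe sets. Without control replicate 2, the difference was -0.48 for GluB, -0.37 for NP24-I and -0.16 for CHI9. Without control replicate 1, the lowest control for GluB and CHI9, it was -0.89 for GluB and -0.24 for CHI9. Quantile normalization and centring of each array moved GluB to -0.66 and -0.67, NP24-I to -0.42 and -0.43 and CHI9 to -0.20 and -0.21.

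**Figure D2:**
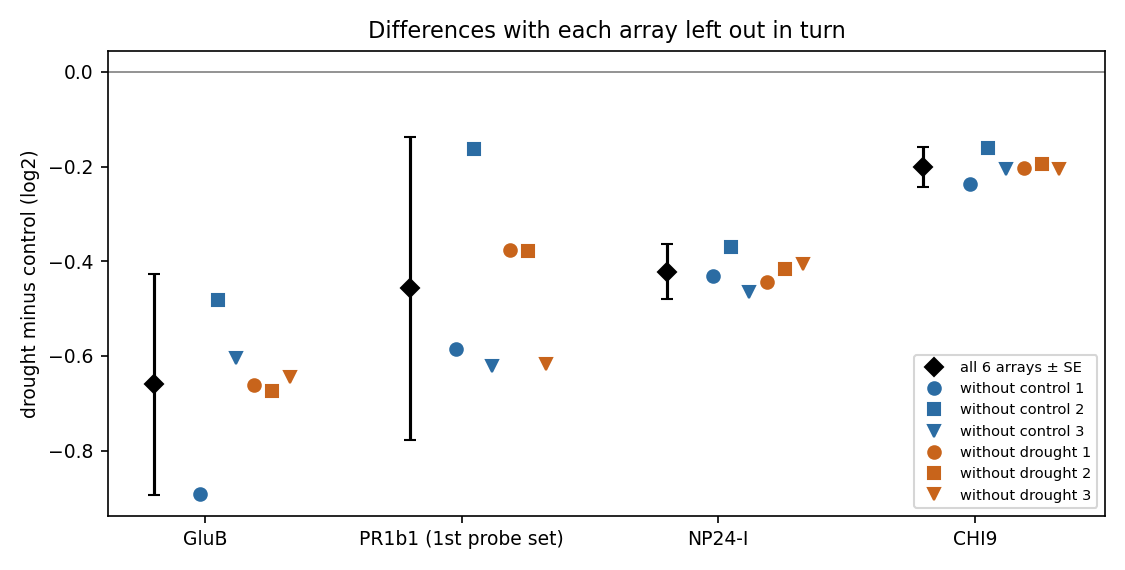
Drought minus control difference (log2, vertical axis) for the 4 probe sets with a range over 0.1, with all 6 arrays (black, ± SE) and with each array left out in turn (blue for a control, orange for a drought array). PR1b1 moves most, from -0.16 when control replicate 2 is left out to -0.62 when control replicate 3 is, and NP24-I stays between -0.47 and -0.37.

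Values that move at all were rare on these arrays. In 75.71% of the tested probe sets the 6 arrays lay within 0.001 of each other, and the median absolute difference was 4.5e-05. Bacterial and phage hybridization control probe sets (n = 9) ranged by 0.00047 at most. The method that summarised the probes is unknown here, and log2 differences of these values may therefore depart from the fold change in transcript. By size of difference, GluB ranked 34, PR1b1 46, NP24-I 51 and CHI9 99 among the 10101 probe sets, whereas CHI17 ranked 1207 and the second PR1b1 probe set 9088. Since the genes were picked with these values known, their ranks carry no weight of their own. In all, 1.59% of the probe sets differed by 0.1 or more.

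**Figure D3:**
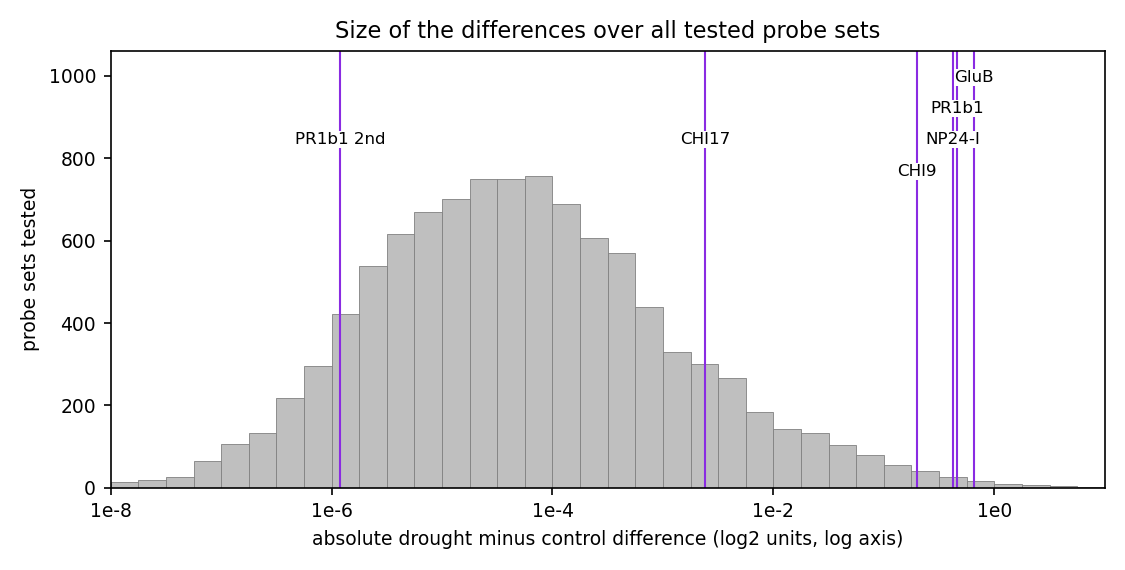
Number of tested probe sets (vertical axis) by absolute drought minus control difference in log2 units (log axis), with purple lines at the 6 described probe sets. GluB, PR1b1, NP24-I and CHI9 lie in the right tail at 0.20 to 0.66, CHI17 lies at 0.0024 and the second PR1b1 probe set lies left of the middle.

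Separation of the groups was common among probe sets. Of the 6 described, 3 had all drought arrays below all controls (14.3% of all tested probe sets) and 1 had them all above (20.5%), so that 4 did not overlap (34.8%). The shares over all probe sets depended on scaling, at 34.2% below and 3.29% above after quantile normalization and 91.7% below and 2.12% above after centring. Among the 4 with a range over 0.1, 3 were separated downward, against 14.6% of the 268, and 0 upward, against 35.8%. These counts come from the comparison by which the genes were picked and carry no weight of their own. In the limma fit over the whole table, 77 probe sets (0.762%) passed an adjusted p of 0.05, 53 higher (0.525%) and 24 lower (0.238%) in drought. That count was 0 without control replicate 2 or drought replicate 3, 1 without drought replicate 1 or drought replicate 2, 7 without control replicate 1, and 546 without control replicate 3.

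GluB, the first PR1b1 probe set and CHI9 were also dim. They lay between percentiles 11.7 and 37.8 of their arrays, and NP24-I between 27.3 and 38.2. Detection calls were not used here, so how far these signals stood above background was not tested. The second PR1b1 probe set lay at percentile 0.574, close to the lowest value of every array (5.46). CHI17 lay at percentiles 75.2 to 75.3.

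The wider family was read from a list of pathogenesis-related genes that held 11 further genes on the array. TPx1, 1 of the 11, was matched without regard to letter case, and whether it belongs to the family was not checked. Of the 11, 0 passed the limma threshold over all probe sets (0.762% of all tested), and 2 had an unadjusted p under 0.05 (25% of all tested). Their means were lower in drought in 7 and higher in 4, and their median difference was -2.0e-06, against -1.1e-07 over all tested probe sets. A lower drought mean was found in 50.8% of all probe sets. The drought arrays lay below all controls in 4 of the 11 (14.3% of all probe sets) and above them in 1 (20.5%), on the values as deposited.

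Among the chitinase genes, the probe set annotated as CHI14 hardly varied (-1.5e-05, limma adjusted p = 0.240). Which class of chitinase it reads was not checked. CHI3, an acidic extracellular form like CHI17, read 7.20, 7.20 and 7.19 in the controls and 7.38, 7.20 and 7.28 in the drought arrays. Drought replicate 2 lay among the controls and the other 2 drought arrays above them. The difference of 0.087 ± 0.047 (SE) missed the threshold (limma adjusted p = 0.334).

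In the PR-1 family, P4 differed by -0.00059 (limma adjusted p = 0.457). In the osmotin-like family, LOC543878, for which PR5 is a synonym, read 6.02, 6.06 and 6.03 in control and lay between 6.0021 and 6.0059 in drought. Its drought arrays lay below all controls, as those of NP24-I did, but its difference was -0.030 ± 0.011 (SE, limma adjusted p = 0.199).

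The subtilisin-like protease gene P69A came nearest to the threshold of the 11, at 0.000615 ± 6.7e-05 (SE, limma adjusted p = 0.0526). It passed without control replicate 3 (0.0419) and with array weights (0.0443), lay below 0 after quantile normalization (-0.0027), and passed as lower after centring (-0.0049, adjusted p = 0.0287), as most probe sets did. Its relative P69B differed by -0.013 (limma adjusted p = 0.341). TSI-1 differed by -0.00075 (adjusted p = 0.264) and CEVI57 by 0.00079 (adjusted p = 0.873). The listed genes CEVI-1 (-2.0e-06, adjusted p = 0.650), TPx1 (-1.4e-06, 0.783) and TPX2 (1.3e-06, 0.789) differed by less than the hybridization controls ranged. Whether TPx1 is a pathogenesis-related peroxidase was not checked.

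PR-5 and PR-P2, a PR-4 gene by its RefSeq synonym, were added to the list after the symbols had been read. PR-P2 read 6.98, 7.01 and 6.92 in control and 6.89, 6.91 and 6.92 in drought, separated by a narrow gap and with control replicate 2 again highest (-0.065 ± 0.026, SE, limma adjusted p = 0.217). PR-5 differed by -0.00014 (adjusted p = 0.352).

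**Figure D4:**
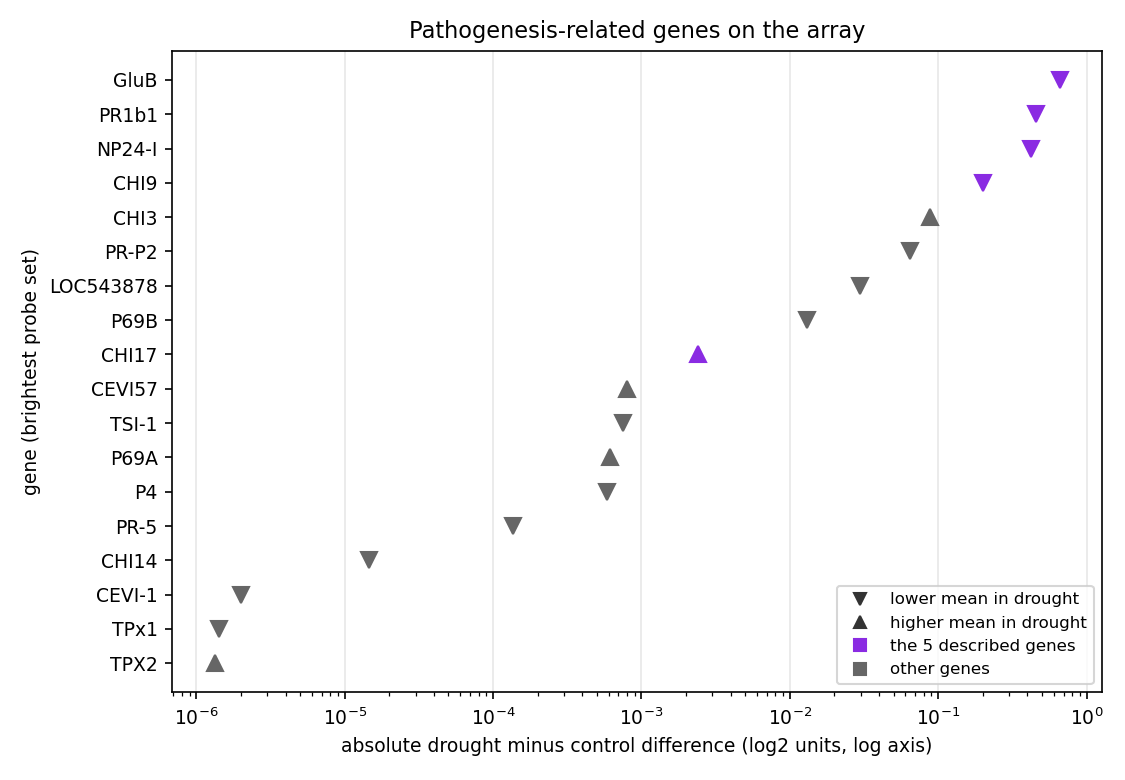
Absolute drought minus control difference (log2 units, log axis) of the brightest probe set of each of 18 genes. They are the pathogenesis-related list, TPx1 among it, with PR-5 and PR-P2 added. Triangles point down for a lower and up for a higher mean in drought, and purple marks the 5 described genes. The 4 largest are GluB, PR1b1, NP24-I and CHI9, which were picked with their values known, so their place carries no weight. CHI3 follows at 0.087 in the opposite direction.

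Of the 5 genes, 3 have a measured gene close by on the chromosome, in the gene order of the RefSeq assembly SLM_r2.1. Within 3 protein-coding genes on either side, 5 neighbours had a named probe set. The others, among them TPM-1 next to NP24-I and PR1a2 near PR1b1, had none. To which families the unmeasured neighbours belong was not looked up. P4 is the next gene to PR1b1, and CHI3 is the next gene to CHI17. NP24-I is flanked by ER1, and PR-5 and LOC543878 lie at 3 genes' distance on either side. ER1, a gene of an ethylene-responsive proteinase inhibitor, read 6.48, 6.63 and 6.57 in control and 6.31, 6.27 and 6.27 in drought. Its groups did not overlap (-0.27 ± 0.045, SE, limma adjusted p = 0.0639), while the neighbours P4 and PR-5 ranged by 0.0015 and 0.00035 over the arrays.

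To find genes with a like pattern, each profile over the 6 arrays was set to 0 at its lowest and 1 at its highest array, and the mean absolute gap to each of 70 other named probe sets with a range over 0.1 was taken. ER1 was the nearest to GluB (gap 0.095), NP24-I (0.070) and CHI9 (0.063), where the median gap over the 70 was 0.36, 0.28 and 0.32. Among the described genes, the gap was 0.083 between GluB and CHI9, 0.086 between NP24-I and CHI9 and 0.13 between GluB and NP24-I. PR1b1 stood further off, at 0.17 to 0.24 from these 3. The described genes were picked with these values known, so small gaps between genes lower in drought carry no weight of their own.

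LOC543758 was also among the 3 nearest to GluB, NP24-I and CHI9, the MADS-box gene TDR8 to NP24-I and CHI9, and cevi19 to GluB. TDR8 read 8.95, 8.97 and 8.94 in control and 8.86, 8.88 and 8.87 in drought (-0.083 ± 0.0094, SE, limma adjusted p = 0.0531). For PR1b1 the nearest was CBF1, the gene of a cold-responsive transcription factor, at a gap of 0.093. CBF1 read 8.57, 8.80 and 8.36 in control and 8.32, 8.24 and 8.53 in drought, so that drought replicate 3 again lay among the controls (limma adjusted p = 0.436). The ACC synthase gene ACS3 and CYP1 followed at 0.10 and 0.12.

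**Figure D5:**
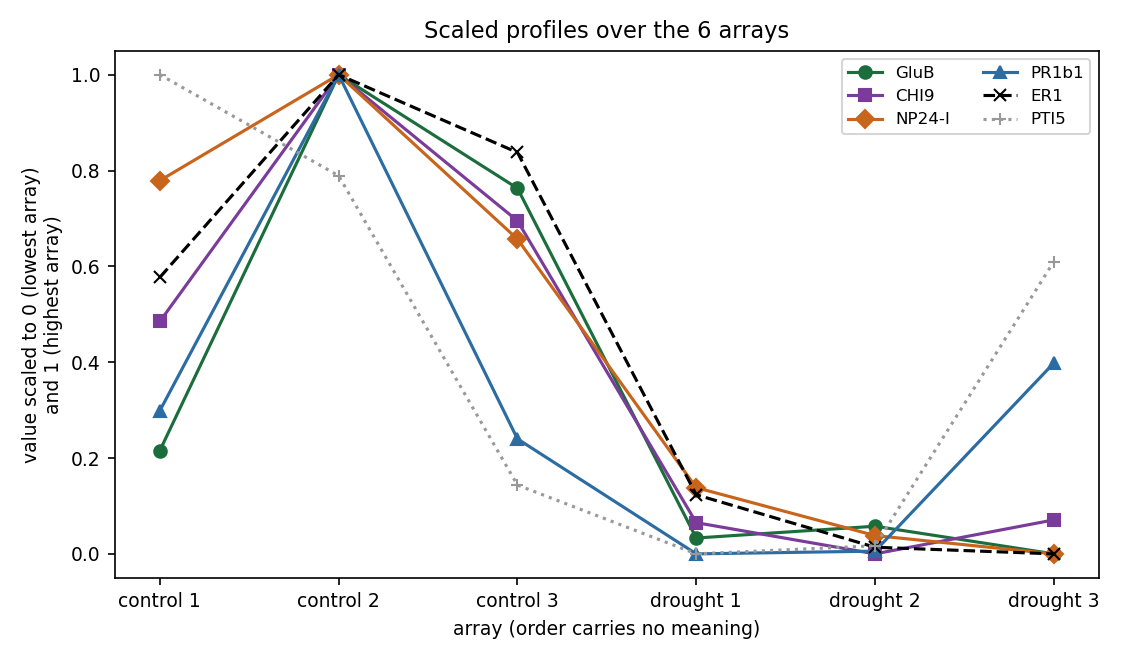
Profiles of GluB, CHI9, NP24-I, PR1b1, ER1 and PTI5 over the 6 arrays (horizontal axis, whose order has no meaning), each scaled to 0 at its lowest and 1 at its highest array. ER1 runs beside GluB, CHI9 and NP24-I, and PR1b1 and PTI5 are both raised in drought replicate 3, PR1b1 to 0.40.

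Genes that act before pathogenesis-related genes were read from a second list, of 16 genes for salicylate signalling, ethylene response factors, resistance proteins and their kinases. Of these, 0 passed the limma threshold (0.762% of all probe sets) and 3 had an unadjusted p under 0.05 (25%). Means were lower in drought in 12 (50.8% of all probe sets) and higher in 4, with a median difference of -7.4e-05. WRKY2, a transcription factor gene, had the smallest p (-0.0018 ± 0.00041, SE, limma adjusted p = 0.103), and its adjusted p was 0.0191 with control replicate 3 left out. It was followed by NPR1, the salicylate co-activator of PR gene expression (0.00011, adjusted p = 0.113, below 0 after quantile normalization at -0.0058 and after centring at -0.0054), and by the kinase gene PTI1 (-6.3e-05, adjusted p = 0.199). Without control replicate 3 the resistance gene Ve1 also passed (-4.7e-05, adjusted p = 0.0478).

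PTI5, PTI6 and PTI4 encode ethylene response factors that interact with the Pto kinase and bind the GCC box of PR gene promoters. PTI5 was picked after its values were seen and stood at 6.78, 6.64 and 6.20 in control and at 6.10, 6.11 and 6.52 in drought. The groups overlapped through drought replicate 3, as in PR1b1 (-0.30 ± 0.21, SE, limma adjusted p = 0.457). Its highest array was control replicate 1, however, where that of PR1b1 was control replicate 2. PTI6 differed by -0.060 ± 0.028 (SE, adjusted p = 0.279) and PTI4 by -0.00097 (adjusted p = 0.697). MPK3, from the same list of regulators, differed by -0.13 ± 0.072 with overlapping groups (SE, limma adjusted p = 0.353). Its other probe sets differed by -0.076 and -0.00094.

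Marker lists were read beside these genes. The mean log2 value of 4 plastid genes of green tissue ran from 9.6436 to 9.6982 in control and from 9.6246 to 9.6824 in drought. Of the 4, 0 passed the limma threshold (0.762% of all probe sets) and 0 had an unadjusted p under 0.05 (25%). The 13 ripening genes ran from 7.7695 to 7.8168 in control and from 7.7657 to 7.7721 in drought. Control replicate 1 was the highest, with control replicates 2 and 3 at 7.7764 and 7.7695. Of the 13, 0 passed the limma threshold (0.762% of all probe sets) and 2 had an unadjusted p under 0.05 (25%). The groups were separated upward in 1 (20.5%) and downward in 3 (14.3%), namely RIN (-0.14), TDR4 (-0.018) and PG2 (-2.1e-06). The 4 seed genes LEA14, MAN1, MAN2 and TAS14 ran from 8.1233 to 8.1941 and from 8.1055 to 8.1493. Of the 4, 0 passed the limma threshold (0.762% of all probe sets) and 2 had an unadjusted p under 0.05 (25%). LEA14 was separated downward (14.3%) and MAN2 upward (20.5%). TAS14 had the widest range of the 4, 0.36 (-0.15, limma adjusted p = 0.379). Whether these genes follow seed content under drought was not tested. The group means of the plastid, ripening and seed lists overlapped. Drought means were lower in 4 of the 4 plastid, 11 of the 13 ripening and 3 of the 4 seed genes (50.8% of all probe sets). The 3 epidermal lipid transfer protein genes did not overlap, at 9.7845 to 9.7912 in control and 9.7742 to 9.7802 in drought. This direction was that of GluB, NP24-I and CHI9, and also of most genes in the other 3 lists. Of the 3 genes, 0 passed the limma threshold (0.762% of all probe sets), 2 had an unadjusted p under 0.05 (25%) and 2 were separated downward (14.3%). Their part in those differences was not tested.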

How the data were processed

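Per the labels, 100 ng of RNA was turned into biotin-labelled cRNA and hybridized to 1-colour arrays. The deposited values are log2 probe set summaries made by the authors. Their scale was taken from the values, which stay below 16, and how they were corrected, normalized and summarised is unknown, since no label or header states it. Precision is limited by the number of arrays. Of 10209 probe sets, 108 control probe sets were left out. Symbols came from the platform annotation (909 probe sets with 1 symbol, 9192 with none, 0 with several), and all 5 genes matched the RefSeq gene table by identifier. No sequence of these genes was used here, and a planned promoter motif search was not run.

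Groups came from the sample titles. The 2 groups were compared by limma 3.58.1 under R 4.3.3, using lmFit with eBayes (two-sided, adjusted by Benjamini-Hochberg over 10101 probe sets, threshold 0.05), with no block and no filter. SEs are those of this fit. The fit was tested on simulated data.

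The described genes and both gene lists were chosen with earlier results of these data known. Lists were matched by symbol or RefSeq synonym without regard to case, with the brightest probe set per gene. GPA1, a G protein gene that only shares the synonym TGA1, was left out. Named were all probe sets of the 5 genes, all measured genes of the pathogenesis-related list, any called regulator or, failing that, the 3 of smallest p, and for each gene with a range over 0.1 the 3 named probe sets of nearest scaled profile. P69A and Ve1 without single arrays, PTI4, PTI5, PTI6, MPK3, PR-5, PR-P2 and marker genes were named after their values or symbols were seen.

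Alternatives were quantile normalization, centring on array medians, leaving out the dimmest 30% of probe sets, a replicate block, a trended robust prior, array weights, unmoderated variances, averaging a gene's probe sets and leaving out each array in turn.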

Additional observations from a re-analysis of the deposited data

How the results depend on the processing

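The lower drought means of GluB, NP24-I, CHI9 and the first PR1b1 probe set kept their sign under every alternative that gave a value. With single arrays left out they ran from -0.89 to -0.48, from -0.47 to -0.37, from -0.24 to -0.16 and from -0.62 to -0.16, and the second PR1b1 probe set from -2.4e-06 to -5.5e-07. GluB, CHI9 and both PR1b1 probe sets had no value once the dimmest 30% were left out. CHI17 (0.0022 to 0.0027 with single arrays left out) turned to -0.0019 after quantile normalization and -0.0031 after centring, and the second PR1b1 probe set moved to -0.0055 after centring. Centring subtracts array medians that differ by more than most probe sets do.

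The count of 77 called probe sets was 0 after quantile normalization, 9406 after centring (214 higher, 9192 lower), 391 with array weights, 7 with unmoderated variances and 0 to 546 with single arrays left out. Non-overlapping probe sets numbered 3511, and 9480 after centring (9266 lower) or 4120 to 5271 with single arrays left out. Of the 11 further genes of the pathogenesis-related list, 9 passed after centring, 1 with array weights and 0 to 1 with single arrays left out. Of the 16 regulators, 14 passed after centring and 0 to 2 with single arrays left out. The median difference of the 11 genes was -0.0027 after quantile normalization, -0.0055 after centring, 0.00079 without the dimmest probe sets (3 genes left), -1.9e-05 to -1.3e-06 with single arrays left out, and, chosen after seeing the data, -1.5e-05 with PR-5 and PR-P2 and -0.00030 with the 5 described genes. Other than for centring and for lists with fewer or more genes, the cause was not tested.

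With the replicate number as a block, 0 probe sets were called and the differences of the 5 genes were unchanged. Same-numbered arrays had correlations over 268 probe sets of -0.13, -0.033 and -0.16. With 3 arrays per group these cannot show whether the numbers pair the samples, and the labels name no pairing.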
